A study of Mus musculus with 16 samples.

Results

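To determine which genes differ in the lipolytic state when the conversion of fatty acids to acyl-CoA is inhibited, cells given triacsin C and SR-3420 were compared with cells given SR-3420 alone. The comparison takes 5 of the 16 samples of the series, 3 of triacsin C + SR-3420 (replicates 1, 2 and 3) against 2 of SR-3420 (replicates 1 and 3), and was made over all genes rather than over genes chosen for their response to lipolysis. All samples are BAT-LgT cells, a single line of mouse brown preadipocytes made immortal with the SV40 large T antigen, at day 7 of differentiation. Triacsin C (5 µM), etomoxir (50 µM) or vehicle was given 1 h ahead of a 3 h period with or without SR-3420, whose dose the labels give as 10 µM and the study's text gives differently. Both groups compared here thus carry SR-3420 and differ by triacsin C. The other samples are 2 of vehicle, 3 of triacsin C, 3 of etomoxir and 3 of etomoxir + SR-3420. They set values beside this comparison and also enter its fit, where they share the estimate of the spread. The study describes its replicates as independent experiments. The p-values here rest on the spread between replicates in all 16 samples, not in the 5 compared alone. A vehicle replicate 1 and an SR-3420 replicate 2 were not analysed here.

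Lipolysis releases fatty acids from the triglyceride of lipid droplets, and SR-3420 starts it by binding ABHD5, the co-activator of the lipase ATGL, without a β-adrenergic agonist. A released fatty acid must be joined to coenzyme A by a long-chain acyl-CoA synthetase before it can be oxidized in mitochondria or put back into glycerolipids. Triacsin C inhibits several of these synthetases and so hinders both fates while lipolysis goes on. Etomoxir acts later, on the carnitine palmitoyltransferase that brings acyl groups into mitochondria. How far acyl-CoA synthesis was blocked was not measured here. Fatty acids and their derivatives are also ligands of the nuclear receptors called PPARs, which drive many genes of adipocyte identity and fatty acid oxidation.

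The counts of the 5 samples summed to 15667121 and 19156037 for SR-3420 and to 10659704, 12043744 and 16265789 for triacsin C + SR-3420. Replicates of a group differed by more than counting noise, with a chi-square per degree of freedom of 70.1 between the SR-3420 samples and of 9.27 to 57.3 between the triacsin C + SR-3420 samples. The summed normalized count (a count divided by the size factor of its sample) of 11 brown adipocyte markers was 115659 to 119087 with SR-3420 and 68353 to 74641 with triacsin C + SR-3420, and 4 of the 10 that were tested were lower. The defining thermogenic marker Ucp1, the uncoupling protein of brown fat, was close to absent, with 28.6 and 33.2 normalized counts with SR-3420 and 35 to 49.9 with triacsin C + SR-3420, and Dio2 stayed under 20. The 6 preadipocyte or fibroblast markers summed to 53562 and 70397 without and to 59391 to 85350 with the inhibitor, and those of leukocytes (80.7 to 136), endothelial cells (23.5 to 45.8) and muscle cells (81.9 to 142) were low in all 5 samples. In such bulk samples, fewer cells of a type and less RNA per cell cannot be told apart.

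More genes were called lower than higher when triacsin C was added in lipolytic cells. Of the 12786 genes tested with edgeR's quasi-likelihood test, 454 were lower (3.55% of genes tested) and 131 higher (1.02%) at a Benjamini-Hochberg adjusted p under 0.05, so that 77.6% of the calls were lower. That share was 48.7% to 88.5% over the alternatives tried, so the excess of decreases did not hold in all of them. With only the 2 groups in the model, 9 genes were higher and 69 lower. The groups did not overlap for any of these 585 genes. That adds no support to the calls, since the genes were called from the same values, and the share over all genes is not given here. Among the lower genes the median log2 fold change (log2FC) was -0.94 and 203 fell at least to a log2FC of -1, whereas the higher genes had a median of 0.74 and 27 reached 1. The median over all genes tested was 0.017. Of the 12786, 2494 had an unadjusted p under 0.05, the background for the counts at that p in each list below. The 10 largest increases among the named genes were those of Hmox1, Eid3, Mt2, Slc7a11, Procr, Ptgs2, Srxn1, Txnrd1, Gdnf and Slc30a1. Among the deepest decreases were those of the fatty acid receptor Ffar4, Tspan18, Ppargc1b and Ppara, and genes of triglyceride synthesis, lipid droplets, β-oxidation and adipocyte identity were among the others that fell.

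**Figure D1:**
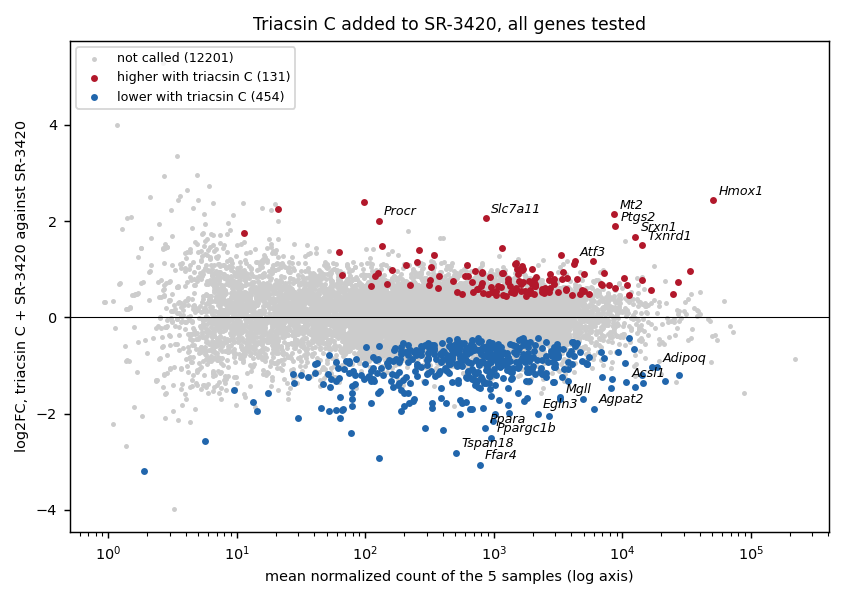
The log2FC of triacsin C + SR-3420 against SR-3420 (vertical axis) is plotted against the mean normalized count of the 5 samples (horizontal log axis) for the 12786 genes tested. Red points are the 131 genes called higher and blue points the 454 called lower. The called genes lie at high and low counts, with Hmox1 among the most abundant increases and Ffar4 among the deepest decreases.

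Of the samples, SR-3420 replicate 1 moved the number of calls most when left out. Leaving out SR-3420 replicate 1 left 54 calls, and leaving out SR-3420 replicate 3 left 401, against 213 to 336 when a triacsin C + SR-3420 sample was left out. The log2FC also followed the GC content of the transcripts: over 11959 genes with a GC content, Spearman's rho was -0.43 across genes, which are not independent replicates, and the median log2FC was 0.35 in the fifth of genes with the lowest GC content (median 42.2%) and -0.22 in the fifth with the highest (58.5%). When trends over GC content and length were removed in each sample, an alternative chosen after seeing the data, 943 genes were higher (7.89% of the 11959) and 1326 lower (11.1%, and 58.4% of calls), among them 119 of the 131 and 415 of the 454. Of the 91 called genes that the naming rule or a later choice gave, 67 lost their calls without SR-3420 replicate 1, and each kept the sign of its log2FC, at a median of 0.852 times the size with all samples (0.476 to 1.29 times). No gene called in the comparison was called in the other direction under any alternative.

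Hmox1, which encodes the haem-degrading heme oxygenase 1 (mm9 chr8:77617517-77624492), had 12516 and 15136 normalized counts with SR-3420 and 72818, 78101 and 75727 with triacsin C + SR-3420. The groups were thus far apart, with a 5.41-fold difference (log2FC 2.43 ± 0.17 SE, adjusted p = 1.91e-05). Mt2, a metallothionein that binds zinc and other metals (chr8:96696518-96697467), was at 2578 and 2990 against 12027, 12333 and 13072 (log2FC 2.15 ± 0.17, adjusted p = 4.25e-05). Its neighbour Mt1, named after its values were seen, was at 12613 and 8361 against 25673, 22146 and 18847, higher in each sample, but did not pass the test (log2FC 1.07, adjusted p = 0.0922), although DESeq2 called it and so did the fit with trends over GC content and length removed (1.18, adjusted p = 0.000728). Slc30a1, the zinc exporter of the plasma membrane, rose from 527 and 602 to 1330, 1422 and 1908 (log2FC 1.45 ± 0.28, adjusted p = 0.0124). The zinc importer Slc39a10, named after its value was seen, fell (log2FC -0.92, adjusted p = 0.0179). No list of zinc transporters was made, so a change of the family was not tested.

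Of 34 targets of NRF2, the factor that activates antioxidant genes, 7 rose (20.6%) and 0 fell, with 19 at an unadjusted p under 0.05. DESeq2 called 7 of 37 higher and 2 lower, against 2.43% and 3.98% of all genes it tested. With trends over GC content and length removed, 14 of the 34 were higher and 6 lower, against 7.89% and 11.1% of all genes. The increases belonged to a subset of the list, whose median was 0.08, close to the 0.02 of all genes. That median was 0.21 with trends over GC content and length removed and 0.37 without SR-3420 replicate 1, where that of all genes was 0.04. Txnrd1, the cytosolic thioredoxin reductase, was at 7058 and 6342 with SR-3420 and at 18913, 18913 and 19822 with the inhibitor (log2FC 1.51 ± 0.12, adjusted p = 4.79e-05). It overlaps another gene of the table, as do Eid3, Plk3, Crat, Bscl2, Nrg4, Adora1, Acsl3, Tsr1 and Acad11 below, and the strand setting of the counting is not given in the sources used here, so that reads of overlapping genes cannot be told apart. Srxn1, the sulfiredoxin that restores oxidized peroxiredoxins, was at 4811 and 5969 against 15521, 19609 and 17037 (log2FC 1.67 ± 0.25, adjusted p = 0.00272). Nqo1, a quinone reductase, rose from 125 and 135 to 319, 284 and 438 (log2FC 1.40), Gclc, which makes the precursor of glutathione, from 1863 and 1737 to 3326, 3274 and 3575 (0.90), and the autophagy receptor Sqstm1 from 21269 and 21473 to 42809, 44962 and 38359 (0.96). Slc7a11, the cystine importer, was at 255 and 333 against 1009, 1038 and 1672 (log2FC 2.06 ± 0.42, adjusted p = 0.0144), with replicate 3 above the other two. Without SR-3420 replicate 1, the calls of Slc7a11, Srxn1, Nqo1, Sqstm1 and Slc30a1 were lost, at adjusted p of 0.216, 0.0711, 0.123, 0.139 and 0.189, whereas Hmox1, Mt2, Txnrd1 and Gclc kept theirs on leaving out any of the 5 samples.

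Of 51 genes of the integrated stress response, in which the factor ATF4 activates amino acid transport and synthesis, 12 rose (23.5%) and 0 fell. Of these 51, 30 had an unadjusted p under 0.05, and the median log2FC was 0.41. DESeq2 called 23 of the 51 higher, and 35 were higher with trends over GC content and length removed. Atf4 itself was at 8589 and 11086 with SR-3420 and at 16859, 16840 and 17104 with triacsin C + SR-3420 (log2FC 0.77 ± 0.13, adjusted p = 0.00609). Atf3, a stress-induced factor of the same family, rose from 2246 and 2593 to 5002, 5860 and 5581 (1.16 ± 0.15, adjusted p = 0.00175), and Ppp1r15a, the phosphatase subunit that ends the response, from 2189 and 2739 to 5242, 5913 and 5010 (1.11 ± 0.18, adjusted p = 0.0039). Nupr1, a small stress-induced nuclear protein, was at 639 and 869 against 1366, 1509 and 1431 (0.91 ± 0.16, adjusted p = 0.00653). The other called members were Slc7a11, Bcat1, Ndrg1, Nars, Slc38a2, Slc7a1, Psph and Mthfd2, several of which transport amino acids or make serine and one-carbon units. The classical members Asns (log2FC 0.27), Trib3 (0.32) and Ddit3 (0.58) did not pass the test. Of 46 endoplasmic reticulum chaperone and degradation genes, edgeR called Herpud1 alone (log2FC 0.50 ± 0.12, adjusted p = 0.0317) and DESeq2 called 4, all higher, and the call of Herpud1 was lost on leaving out any of the 5 samples (0.0541 to 0.359). Adjusted p without SR-3420 replicate 1 was 0.122 for Atf4, 0.0895 for Ppp1r15a and 0.138 for Nupr1, and 1 of the 51 genes of the stress response, Atf3, was still called.

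Promoters of 300 bases, from 250 before to 50 after the first start that RefSeq lists on GRCm38.p6, were found for 101 of the 131 higher genes, 337 of the 454 lower genes and 9649 of the genes tested. The amino acid response core TGATGNAAN, searched on both strands, was in 8.91% of promoters of higher genes (9 of 101), in 2.08% of those of lower genes and in 2.12% of all. The AP-1 motif TGANTCA was in 8.91%, 5.04% and 5.06%, and the CRE TGACGTCA in 5.94%, 2.08% and 3.36%. The E-box CACGTG (12.9%, 12.8% and 10.2%), the antioxidant core TGACNNNGC (15.8%, 13.9% and 14.9%), the NF-kB consensus (30.7%, 29.1% and 27.0%) and the heat shock element GAANNTTC (1.98%, 3.86% and 5.61%) are given in the same order of sets. The antioxidant core can overlap the AP-1 and CRE motifs. These shares are descriptions, and a match is not a bound site.

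The promoters below show the amino acid response core, in capitals, in 3 of the genes that rose. Slc7a11 (chr3:50443564-50443863, minus strand) holds it on both strands, at -66 and -48 from the start, and Atf3 (chr1:191183284-191183583) and Nupr1 (chr7:126625421-126625720), both on the minus strand, hold it at -111.
Slc7a11: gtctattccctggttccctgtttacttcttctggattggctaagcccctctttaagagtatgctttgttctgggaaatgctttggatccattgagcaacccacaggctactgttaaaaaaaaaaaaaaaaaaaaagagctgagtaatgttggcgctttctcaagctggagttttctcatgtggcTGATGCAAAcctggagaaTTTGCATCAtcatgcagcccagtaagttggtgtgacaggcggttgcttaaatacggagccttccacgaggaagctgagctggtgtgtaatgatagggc
Atf3: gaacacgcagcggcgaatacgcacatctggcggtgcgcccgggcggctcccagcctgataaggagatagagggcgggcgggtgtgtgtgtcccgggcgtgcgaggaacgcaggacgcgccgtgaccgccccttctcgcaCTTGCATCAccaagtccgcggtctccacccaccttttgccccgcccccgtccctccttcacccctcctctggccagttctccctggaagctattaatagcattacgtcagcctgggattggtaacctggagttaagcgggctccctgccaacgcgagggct
Nupr1: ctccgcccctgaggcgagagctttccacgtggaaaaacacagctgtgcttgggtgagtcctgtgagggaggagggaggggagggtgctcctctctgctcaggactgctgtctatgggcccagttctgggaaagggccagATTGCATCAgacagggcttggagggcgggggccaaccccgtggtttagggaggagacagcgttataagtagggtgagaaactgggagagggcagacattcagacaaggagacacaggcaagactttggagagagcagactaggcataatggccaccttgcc

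The promoter of Srxn1 (chr2:152105274-152105573, plus strand) is shown because it holds the AP-1 motif, in capitals, at -102 and -45, and that of Ciart (chr3:95882179-95882478, minus strand) because it holds 3 E-boxes, in capitals, at -116, -58 and -44.
Srxn1: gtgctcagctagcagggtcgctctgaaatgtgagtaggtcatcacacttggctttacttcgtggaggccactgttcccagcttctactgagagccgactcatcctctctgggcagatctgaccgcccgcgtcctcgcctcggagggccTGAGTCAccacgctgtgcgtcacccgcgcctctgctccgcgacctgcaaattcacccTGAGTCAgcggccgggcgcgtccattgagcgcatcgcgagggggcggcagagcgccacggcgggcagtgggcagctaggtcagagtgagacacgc
Ciart: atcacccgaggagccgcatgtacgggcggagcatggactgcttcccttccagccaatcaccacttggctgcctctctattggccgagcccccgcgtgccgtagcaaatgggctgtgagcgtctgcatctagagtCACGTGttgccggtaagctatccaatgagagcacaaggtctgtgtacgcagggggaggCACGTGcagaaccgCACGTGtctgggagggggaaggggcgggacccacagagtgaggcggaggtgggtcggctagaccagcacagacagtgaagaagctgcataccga

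Of 45 immediate early factors, genes switched on within minutes of a stimulus, 9 rose (20.0%) and 0 fell, with 20 at an unadjusted p under 0.05 and a median log2FC of 0.39. Besides Atf3, these included Ier3, which had 701 and 1004 normalized counts with SR-3420 and 1644, 1919 and 2029 with the inhibitor (log2FC 1.11 ± 0.18, adjusted p = 0.00446). Klf4, a zinc finger factor, rose from 1173 and 1282 to 2517, 2735 and 2185 (1.00 ± 0.19, adjusted p = 0.0117), and Dusp1, a MAP kinase phosphatase, from 4076 and 2654 to 9419, 7674 and 5965 (1.17 ± 0.31, adjusted p = 0.0457). Fos (log2FC 0.01) and Egr1 (0.39) did not pass. Of 39 cytokine, chemokine and NF-kB feedback genes, Ptgs2 and Csf1 rose, and the call of Csf1 (log2FC 0.57, adjusted p = 0.0376) was lost on leaving out any of the 5 samples (0.0659 to 0.372). Ptgs2, the inducible cyclooxygenase of prostaglandin synthesis, was at 2464 and 4175 against 10483, 11864 and 15068 (1.90 ± 0.34, adjusted p = 0.00759), and replicate 3 was the highest of its group in both conditions. When SR-3420 replicate 1 was left out, the calls of Ier3, Klf4, Dusp1 and Ptgs2 were lost, at log2FC of 0.87, 0.93, 1.51 and 1.56. The call of Dusp1 was lost on leaving out any of the 5 samples, at log2FC of 0.90 to 1.51. On all samples DESeq2 called 16 of 46 immediate early factors and 5 of 48 cytokine genes higher, against 2.43% of all genes it tested. With SR-3420 replicate 1 left out, the median log2FC by edgeR was 0.56 for the immediate early factors and 0.23 for the cytokine genes.

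Other genes among the largest increases were Procr, Gdnf and Eid3. Eid3 (mm9 chr10:82329371-82330674) lies within Txnrd1 (chr10:82296696-82360469) on the same strand. Its reads thus cannot be told apart from those of Txnrd1, which rose too. Procr, the endothelial protein C receptor, was at 41.3 and 47.7 against 189, 173 and 184 (log2FC 2.01 ± 0.26, adjusted p = 0.00164), Gdnf, a neurotrophic growth factor, at 68.1 and 59.0 against 190, 180 and 172 (1.49 ± 0.22, adjusted p = 0.00257), and Eid3 at 16.2 and 38.2 against 145, 162 and 128 (2.4 ± 0.40, adjusted p = 0.00563). Procr and Gdnf kept their calls in each fit that left out a sample, and Eid3 did not without SR-3420 replicate 1 (adjusted p = 0.0988). The kinases Plk2 (log2FC 1.29) and Plk3 (0.79) were the members called by edgeR among 28 BCL2 family and p53 target genes. The call of Plk2 was lost without SR-3420 replicate 1 (adjusted p = 0.0704) and that of Plk3 on leaving out any of the 5 samples (0.0558 to 0.17).

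**Figure D2:**
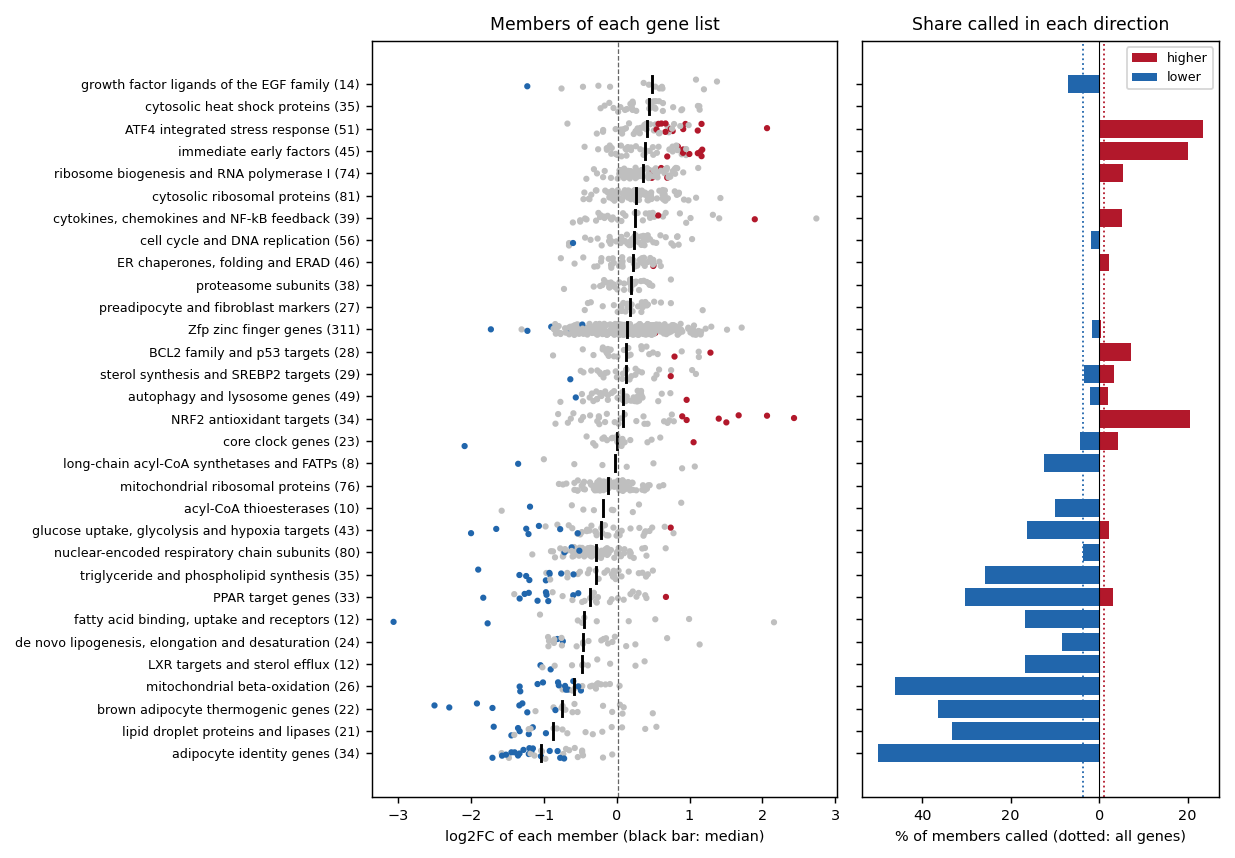
Left, the log2FC of every tested member of each gene list (horizontal axis) with its number of members in parentheses, red where called higher, blue where called lower, grey where not called, with the list median as a black bar and the median of all genes as a dashed line. Right, the percentage of members called higher (red, to the right) or lower (blue, to the left), with the percentages over all genes dotted (1.02% and 3.55%). Adipocyte, lipid droplet, thermogenic and β-oxidation lists lie lowest, and the NRF2, ATF4 and immediate early lists hold most of the increases.

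The gene with the deepest decrease among those named by the rule was Ffar4, the receptor for long-chain fatty acids also called GPR120 (mm9 chr19:38171569-38188753). It had 1927 and 1352 normalized counts with SR-3420 and 219, 189 and 186 with triacsin C + SR-3420, an 8.36-fold difference (log2FC -3.06 ± 0.34, adjusted p = 0.000604), and all 3 inhibitor samples lay below vehicle (581 and 477). Ffar2, the receptor for short-chain fatty acids, fell too, from 643 and 506 to 178, 194 and 138 (-1.77 ± 0.23, adjusted p = 0.00163). On leaving out 1 sample, their log2FC stayed at -3.30 to -2.79 for Ffar4 and -1.93 to -1.59 for Ffar2. The other 10 members of the list of fatty acid binding, uptake and receptor genes did not pass, among them the abundant fatty acid binding protein Fabp4 (-0.47). With trends over GC content and length removed, 6 of 11 members were lower and 1 higher, and DESeq2 called 3 of 19 lower.

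Of 35 genes of triglyceride and phospholipid synthesis, which put fatty acids back into glycerolipids, 9 fell (25.7%) and 0 rose, while 26 were not called and 8 lay above 0. Agpat2, which makes phosphatidic acid, was at 13569 and 7637 with SR-3420 and at 3359, 3082 and 2175 with triacsin C + SR-3420 (log2FC -1.90 ± 0.35, adjusted p = 0.00897). Gpam, which adds the first acyl chain to glycerol-3-phosphate, was at 5079 and 3967 against 1991, 1877 and 1568 (-1.34 ± 0.18, adjusted p = 0.00222), and Gpd1, which makes glycerol-3-phosphate, at 43592 and 39171 against 19122, 18748 and 16793 (-1.20 ± 0.20, adjusted p = 0.00493). Lpin1, the phosphatidic acid phosphatase, fell by 1.24 (SE 0.19, adjusted p = 0.00355), and Dgat2, which makes the final triglyceride, by 0.76. Agpat3, Chpt1, Agpat9 and Gpd1l completed the group. The SR-3420 samples stood apart in Agpat2, and without replicate 1 its adjusted p was 0.17 and that of both Lpin1 and Gpd1 0.0711, while Gpam was the 1 member of the list that kept its call.

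Of 21 lipid droplet proteins and lipases, 7 fell (33.3%) and 0 rose, with a median log2FC of -0.87, which was -0.54 without SR-3420 replicate 1. With trends over GC content and length removed, 14 of 20 were lower, against 11.1% of all genes. Mgll, the lipase that splits the last ester of triglyceride, was at 5902 and 5285 against 1839, 1829 and 1596 (log2FC -1.69 ± 0.18, adjusted p = 0.000577). Plin1, the droplet coat protein that holds ABHD5, was at 24894 and 15704 against 8838, 7983 and 5797 (-1.45 ± 0.33, adjusted p = 0.0248), and Lipe, the hormone-sensitive lipase, at 27165 and 18436 against 10646, 9304 and 7116 (-1.35 ± 0.29, adjusted p = 0.0186). Plin4, Cidec, Fitm2 and Bscl2, which shape or coat droplets, also fell. Plin2, the coat protein found on droplets of most cells, was at 27908 and 20684 against 25595, 24779 and 19922, so that its groups overlapped (-0.07 ± 0.23, adjusted p = 0.887). Mgll kept its call in each fit, and was the 1 member of the list called without SR-3420 replicate 1, where those of Plin1 and Lipe were lost (adjusted p of 0.338 and 0.267).

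Of 26 genes of mitochondrial β-oxidation, 12 fell (46.2%), 0 rose and 14 were not called, with a median log2FC of -0.58 and a highest value of 0.04. Cpt2, the inner membrane carnitine palmitoyltransferase, was at 1893 and 1830 with SR-3420 and at 893, 976 and 790 with triacsin C + SR-3420 (log2FC -1.09 ± 0.15, adjusted p = 0.00239). Crat, the carnitine acetyltransferase, was at 6709 and 4954 against 2656, 2421 and 1990 (-1.32 ± 0.24, adjusted p = 0.00746), and Mlycd, which removes the inhibitor malonyl-CoA, at 1366 and 940 against 538, 458 and 392 (-1.33 ± 0.27, adjusted p = 0.0138). Acads, Acad11, Eci1, Slc22a5, Hadh, Acad10, Acadvl, Hadha and Acad9 completed the group, with log2FC between -1.01 and -0.49. Of 80 nuclear-encoded subunits of the respiratory chain, Sdha, Ndufv3 and Uqcrfs1 fell (3.75%, near the 3.55% of all genes). The median was -0.29, with 17 of the 80 above 0. DESeq2 called 8 of 81 lower, against 3.98% of all genes it tested. With trends over GC content and length removed, 15 of the 80 were lower (11.1% of all genes), but Ndufv3 was not called (-0.45, adjusted p = 0.165). Without SR-3420 replicate 1 none of the 80 was called by edgeR, and the call of Uqcrfs1 was lost on leaving out any of the 5 samples (0.0689 to 0.425). Without SR-3420 replicate 1, 1 of the 26 β-oxidation genes, Cpt2, was lower, and adjusted p was 0.138 for Crat and 0.219 for Mlycd.

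Of 33 PPAR target genes, 10 fell (30.3%) and 1 rose. Ucp3, the uncoupling protein homologue induced by fatty acids, was at 143 and 131 against 30.5, 44.6 and 42.2 (log2FC -1.83 ± 0.36, adjusted p = 0.0126), and Pex11a, a peroxisome division protein, at 1352 and 1174 against 767, 656 and 541 (-0.96 ± 0.18, adjusted p = 0.0113). Txnip rose (0.68 ± 0.18, adjusted p = 0.0455), and its call was lost on leaving out any of the 5 samples (0.0927 to 0.196). Pdk4, the kinase that turns off pyruvate dehydrogenase, did not pass (0.10 ± 0.18, adjusted p = 0.791), with 7485 and 5821 against 7014, 6742 and 7780 and the groups overlapping. Angptl4 (0.27, adjusted p = 0.242) and the hormone Fgf21 (0.41, adjusted p = 0.211) did not pass either, although all 3 inhibitor samples lay above both SR-3420 samples for each and DESeq2 called Angptl4. Without SR-3420 replicate 1, 1 of the 33 was lower and none higher by edgeR, and the calls of Ucp3 and Pex11a were lost at adjusted p of 0.124 and 0.152.

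Ppara, the PPAR most tied to fatty acid oxidation (mm9 chr15:85565994-85637281), was at 1689 and 1542 with SR-3420 and at 278, 384 and 334 with triacsin C + SR-3420 (log2FC -2.30 ± 0.25, adjusted p = 0.000577). Ppargc1b, a co-activator of mitochondrial genes, was at 2205 and 1544 against 392, 347 and 264 (-2.50 ± 0.29, adjusted p = 0.000774), and its relative Ppargc1a at 844 and 786 against 336, 322 and 349 (-1.30 ± 0.26, adjusted p = 0.0138). Prdm16, which keeps the brown fat fate, was at 511 and 402 against 224, 195 and 128 (-1.34 ± 0.28, adjusted p = 0.0166). In all, 8 of 22 brown adipocyte thermogenic genes fell (36.4%) and 0 rose, with the β3-adrenergic receptor Adrb3 (10638 and 6247 against 3065, 2962 and 1832; log2FC -1.71 ± 0.35, adjusted p = 0.0144), Otop1, Nrg4 and Slc36a2 completing the group, and a median of -0.75. Ucp1 did not pass (0.50 ± 0.50, adjusted p = 0.609). Ppara and Ppargc1b kept their calls in each fit that left out a sample, while without SR-3420 replicate 1 no other of the 22 was called, and adjusted p was 0.146 for Ppargc1a, 0.209 for Prdm16 and 0.236 for Adrb3.

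Of 34 genes of adipocyte identity, 17 fell (50.0%) and 0 rose, 28 had an unadjusted p under 0.05, and every tested member had a log2FC below 0 (-1.71 to -0.06, median -1.04). Adipoq, the hormone adiponectin, was at 31062 and 22918 against 14559, 13751 and 11493 (-1.04 ± 0.23, adjusted p = 0.0202), and Insr, the insulin receptor, at 3472 and 2779 against 1506, 1433 and 1272 (-1.17 ± 0.16, adjusted p = 0.00222). Receptors that restrain lipolysis were among them: Hcar1, the lactate receptor, was at 406 and 300 against 118, 141 and 101 (-1.57 ± 0.22, adjusted p = 0.00239), and the adenosine receptor Adora1 at 1204 and 1061 against 490, 453 and 357 (-1.40 ± 0.20, adjusted p = 0.00257). Rxrg, a partner of the PPARs, was at 356 and 261 against 116, 126 and 84.5 (-1.52 ± 0.24, adjusted p = 0.00405). Pparg itself (-0.65, adjusted p = 0.0695) and Cebpa (-1.04, adjusted p = 0.0834) did not pass.

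Of 27 preadipocyte and fibroblast markers, 0 were called by edgeR and 3 had an unadjusted p under 0.05, while DESeq2 called 1 of 29 higher. The median of the 27 was 0.18. It was 0.28 without SR-3420 replicate 1 and 0.27 with trends over GC content and length removed. With trends over GC content and length removed, 28 of 32 adipocyte identity genes were lower and 4 of 27 preadipocyte and fibroblast markers higher. Without SR-3420 replicate 1, 2 of the 34 adipocyte identity genes were lower, Insr and Adora1. The call of Adipoq was lost (adjusted p = 0.284), as were those of Rxrg (0.0781) and, narrowly, Hcar1 (0.0513).

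Further decreases were found among membrane proteins and enzymes. Tspan18, a tetraspanin (mm9 chr2:93041917-93174644), was at 1008 and 1096 against 168, 143 and 142 (log2FC -2.81 ± 0.24, adjusted p = 5.94e-05), the smallest adjusted p of the lower genes named here. The mitochondrial carrier Slc25a34 was at 824 and 729 against 172, 146 and 147 (-2.34 ± 0.34, adjusted p = 0.00257). Nat8l, which makes N-acetylaspartate in brown adipocytes, was at 2322 and 1331 against 479, 424 and 335 (-2.16 ± 0.32, adjusted p = 0.00287). Gprc5c (-2.29), Smtnl2 (-2.41) and the proteoglycan Ncan (-2.10) fell to a like extent. Leaving out SR-3420 replicate 1 gave an adjusted p of 0.067 for Nat8l, 0.0572 for Gprc5c, 0.136 for Smtnl2 and 0.0704 for Ncan, whereas Tspan18 and Slc25a34 kept their calls.

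**Figure D3:**
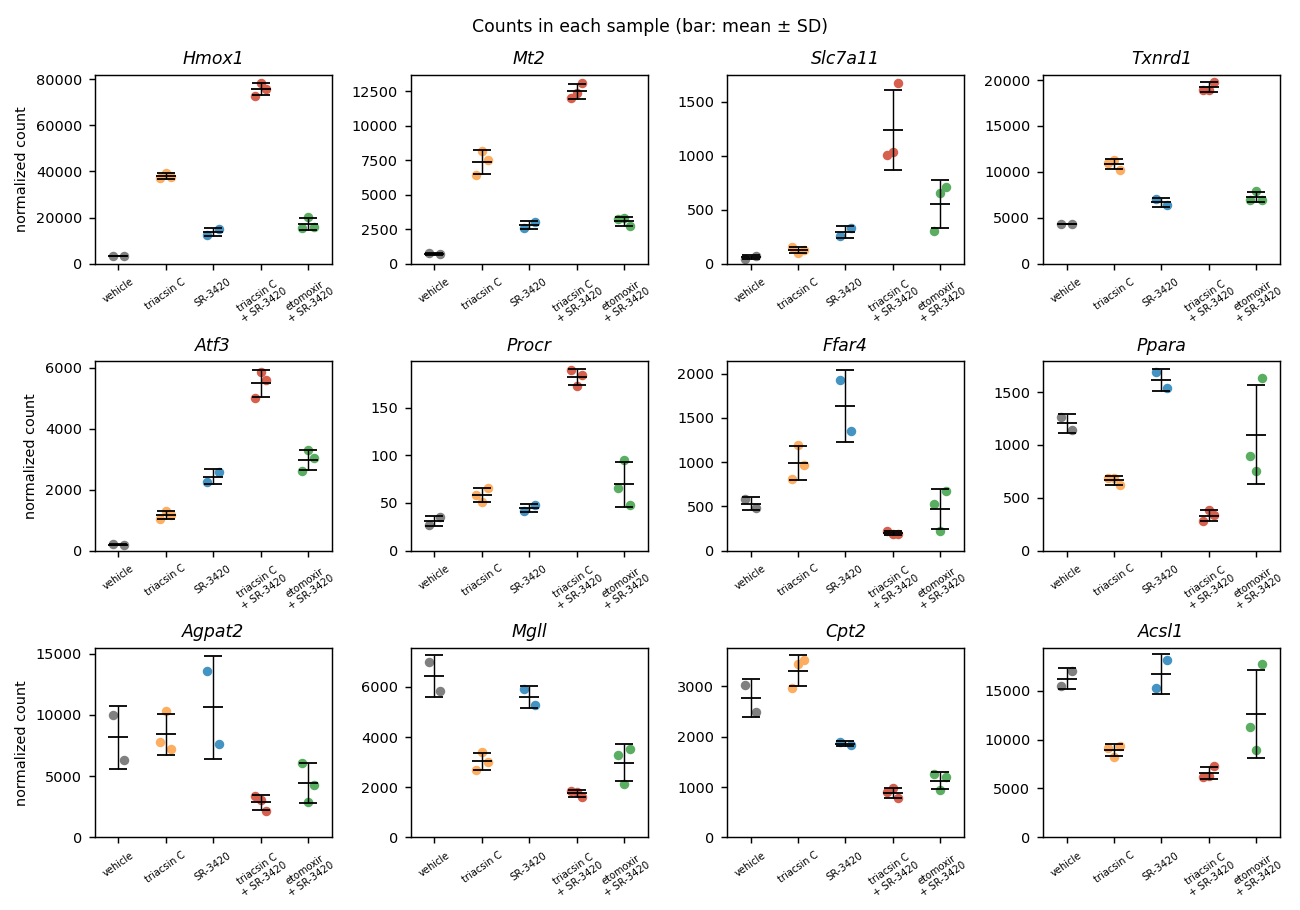
Normalized counts (vertical axes, from 0) of 12 genes in each sample of vehicle, triacsin C, SR-3420, triacsin C + SR-3420 and etomoxir + SR-3420, with the mean and SD as black bars (n = 2 for vehicle and SR-3420, n = 3 for the others). In the first 6 genes the triacsin C + SR-3420 samples lie above all others, and in the last 6 they lie below both SR-3420 samples.

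Of 43 genes of glucose uptake, glycolysis and the hypoxia response, 7 fell (16.3%) and Ndrg1 rose. Egln3, an oxygen-sensing prolyl hydroxylase, was at 3874 and 4049 against 910, 999 and 1093 (log2FC -2.0 ± 0.28, adjusted p = 0.00222), with no overlap with vehicle (756 and 704) either. Pfkfb3, which makes an activator of glycolysis, was at 5546 and 5547 against 1820, 1813 and 1713 (-1.65 ± 0.23, adjusted p = 0.00222), and Pfkfb1 at 379 and 386 against 170, 153 and 178 (-1.21 ± 0.13, adjusted p = 0.000577). Pdk2, Egln1, Slc2a4 and Pgam1 completed the group. Among 12 LXR targets, the cholesterol exporters Abca1 (-1.05 ± 0.16, adjusted p = 0.00316) and Abcg1 (-0.91 ± 0.24, adjusted p = 0.048) fell (16.7%). Of 24 genes of fatty acid synthesis, elongation and desaturation, Acaca (-0.74) and Acss2 (-0.81) fell (8.33%, against 3.55% of all genes). With trends over GC content and length removed, 7 of 12 and 10 of 24 were lower (11.1% of all genes), and 1 and 2 were higher (7.89%). DESeq2 called 4 of 15 and 4 of 25 lower, against 3.98% of all genes it tested. Among 29 sterol synthesis genes, 1 rose and 1 fell (3.45% each, against 1.02% and 3.55% of all genes). The latter was Dhcr7 (-0.64 ± 0.17, adjusted p = 0.05, which lies just under the threshold). Without SR-3420 replicate 1, adjusted p was 0.578 for Abcg1, 0.115 for Acaca, 0.209 for Acss2 and 0.499 for Dhcr7, whereas Egln3, Pfkfb3, Pfkfb1 and Abca1 kept their calls.

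Of 23 core clock genes, 1 rose and 1 fell (4.35% each, against 1.02% and 3.55% of all genes). Ciart, a repressor of the clock, rose from 178 and 209 to 406, 475 and 340 (log2FC 1.06 ± 0.18, adjusted p = 0.00588). Npas2, an activator, fell from 72.9 and 36.5 to 9.87, 14.1 and 15.4 (-2.09 ± 0.38, adjusted p = 0.00834). The list's median was 0.01, and both calls were lost without SR-3420 replicate 1 (0.113 and 0.181).

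Several other groups showed few calls by edgeR in the main fit. Of 35 cytosolic heat shock proteins, 0 were called by edgeR, although the median was 0.45. Above 0 lay 31 of the 35, against 6587 of the 12786 genes tested. An unadjusted p under 0.05 was found for 8 of the 35, against 2494 of the 12786. DESeq2 called 3 of 36 higher. With trends over GC content and length removed, 14 of the 35 were higher, against 7.89% of all genes. Of 74 ribosome biogenesis genes, 4 rose (5.41%, against 1.02% of all genes) and 0 fell, with a median of 0.36 and 68 above 0. With those trends removed 35 were higher, against 7.89% of all genes. DESeq2 called 13 of the 74 higher, against 2.43% of all genes it tested. The 4 called by edgeR, Myc, Nol9, Nolc1 and Tsr1, lost their calls on leaving out any of the 5 samples. In the main fit, 0 of 81 cytosolic ribosomal proteins, 0 of 76 mitochondrial ribosomal proteins and 0 of 38 proteasome subunits were called. Of these, 15, 5 and 3 had an unadjusted p under 0.05, which is no more than the share of all genes (2494 of 12786). DESeq2 called 2 of 85 higher, 1 of 76 lower and 1 of 39 higher. Among 56 cell cycle genes E2f2 alone was called, lower, but not with trends over GC content and length removed (adjusted p = 0.285). With trends over GC content and length removed, 14 cell cycle genes were higher and 3 lower, whereas the 8 higher cytosolic ribosomal proteins, 5 lower mitochondrial ribosomal proteins, and 4 higher and 1 lower proteasome subunits were close to or below the shares of all genes in that fit. The call of E2f2 was lost on leaving out any of the 5 samples (0.0572 to 0.412). Of 49 autophagy and lysosome genes, Sqstm1 rose and Atg7 fell (2.04% each, against 1.02% and 3.55% of all genes). The call of Atg7 was lost on leaving out any of the triacsin C + SR-3420 samples (adjusted p of 0.0575 to 0.107, log2FC of -0.59 to -0.53). Of 14 growth factor ligands of the EGF family, with a median of 0.49 and 9 above 0, Nrg4 fell by edgeR. DESeq2 called 3 of 17 higher and 1 lower, against 2.43% and 3.98% of all genes it tested. The call of Nrg4 was lost on leaving out any of the 5 samples (0.0581 to 0.142). No call was made by edgeR among the 5 tested markers of circulating and endothelial cells or the 4 tested muscle markers. At an unadjusted p under 0.05 were 1 and 2 of them. DESeq2 tested 16 and 12 such markers and called 0 and 1, the latter lower. Of 311 zinc finger genes named Zfp, 5 fell (1.61%) and 1 rose (0.322%), among the former Zfp423, a regulator of preadipocyte commitment (2486 and 1306 against 732, 603 and 401; log2FC -1.73 ± 0.37, adjusted p = 0.0192, and 0.317 without SR-3420 replicate 1).

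Of the acyl-CoA synthetases themselves, Acsl1, the main form of adipocytes (mm9 chr8:47556396-47621404), fell. It had 15276 and 18100 normalized counts with SR-3420 and 6141, 6318 and 7334 with triacsin C + SR-3420 (log2FC -1.35 ± 0.23, adjusted p = 0.00588), and kept its call in each fit that left out a sample. Acsl3 was at 249 and 495 against 618, 706 and 1043 (1.07 ± 0.44, adjusted p = 0.197), Acsl4 at 828 and 1415 against 1428, 1601 and 3286 (0.90 ± 0.57, adjusted p = 0.408) and Acsl5 at 477 and 751 against 543, 640 and 864 (0.14 ± 0.26, adjusted p = 0.79), and none of these passed. With trends over GC content and length removed, Acsl3 (log2FC 0.84, adjusted p = 0.0103) and Acsl4 (0.44, adjusted p = 0.0274) were higher. Both were also called with the replicate number as a block (adjusted p = 0.00714 and 0.0396). Acsl6 had at most 5.67 normalized counts and was not tested. Of 10 acyl-CoA thioesterases, which release the fatty acid again, Acot4 alone was called, at 52.7 and 42.5 against 17.9, 18.8 and 26.9 (-1.19 ± 0.27, adjusted p = 0.0221, and 0.252 without SR-3420 replicate 1). Cyp26b1, a retinoic acid hydroxylase that the study names, was at 290 and 187 against 164, 153 and 129 and did not pass (-0.70 ± 0.20, adjusted p = 0.064). It was called lower by DESeq2 and with trends over GC content and length removed (-0.46, adjusted p = 0.0494). It also passed with the replicate number as a block (adjusted p = 0.00645).

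The same inhibitor was given without SR-3420 in 5 other samples, 3 of triacsin C against 2 of vehicle, which share no sample with the comparison above. There 610 genes (4.77%) were higher and 887 (6.94%) lower. Of the 131 genes higher with SR-3420, 64 (48.9%) were also higher without it and 0 were lower by edgeR, with 126 of the 131 above 0. Of the 454 lower genes, 174 (38.3%) were also lower without SR-3420 and 10 were higher. The shared genes make up 10.5% of the 610 and 19.6% of the 887. Srxn1 (log2FC 1.63 without SR-3420), Txnrd1 (1.34), Nqo1 (1.41) and Gclc (1.09) rose in both states, and Insr (-1.83), Tspan18 (-1.78), Prdm16 (-2.14) and Mgll (-1.06) fell in both.

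The difference between the effects of triacsin C with and without SR-3420 was tested by an interaction term, which called 321 genes (2.51%). It called 76 of the 454 lower genes (16.7%), with a stronger decrease or a decrease in place of an increase in 54 as read from the sign, and 4 of the 131 higher genes (3.05%). The remaining 22 of the 76 had a smaller decrease with SR-3420 than without it. The interaction uses the same samples as the comparison, so these shares are descriptions.

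Of the gene lists, PPAR target genes had the highest share with a called difference, at 10 of 33 tested, each with a negative difference. Without SR-3420, triacsin C raised 8 of the 33 and lowered 0, among them Fgf21 (log2FC 1.98), Angptl4 (1.5), Pdk4 (1.16) and Plin2 (0.80). With SR-3420 these 4 did not pass, at 0.41, 0.27, 0.10 and -0.07. Cpt2 was at 3032 and 2500 with vehicle and 2971, 3446 and 3529 with triacsin C (0.28, adjusted p = 0.302), against the decrease of 1.09 in lipolytic cells, and the difference was -1.37 (adjusted p = 0.0079). For Ucp3 the difference was -2.15 (adjusted p = 0.0451) and for Crat -1.46 (adjusted p = 0.0412). Ffar4 was at 810, 1190 and 964 with triacsin C against 581 and 477 with vehicle (0.92, adjusted p = 0.107), and its difference of -3.99 (adjusted p = 0.0024) was the most negative of the genes named by the rule.

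**Figure D4:**
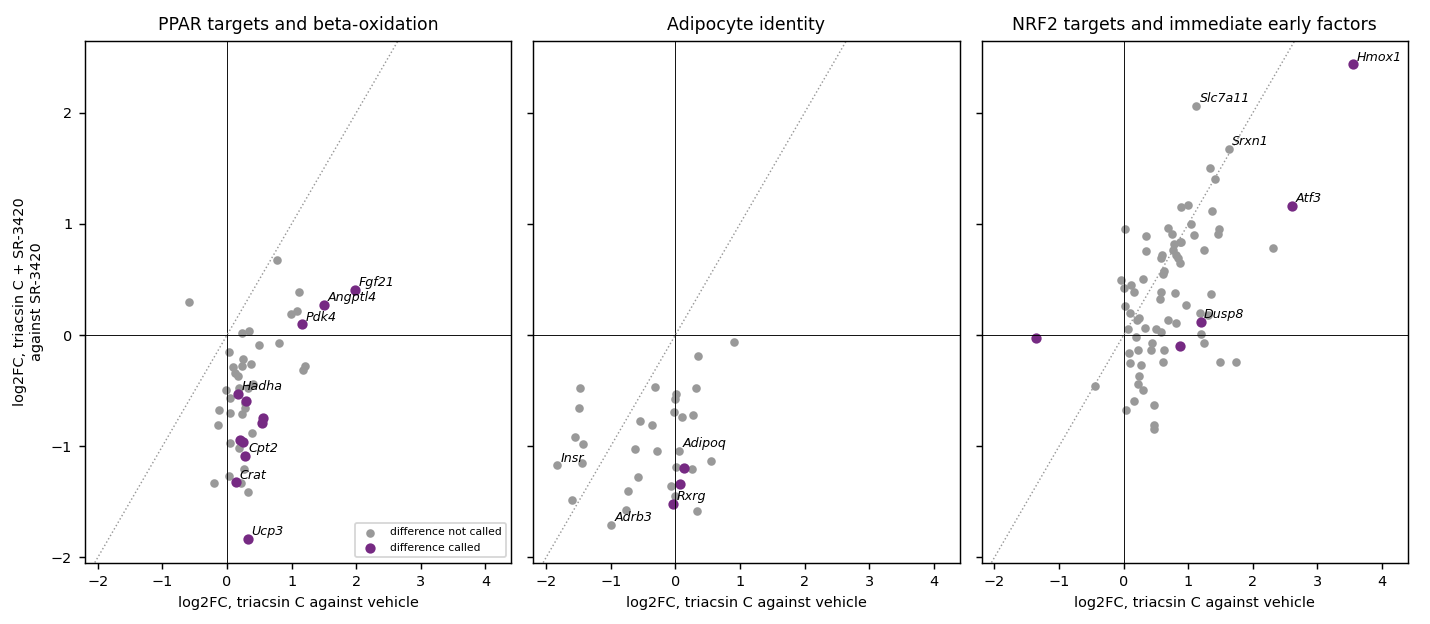
The log2FC of triacsin C against vehicle (horizontal axis) and of triacsin C + SR-3420 against SR-3420 (vertical axis) for members of 5 gene lists, with equal effects on the dotted line. Purple points are genes whose difference between the effects was called. Of the PPAR target and β-oxidation genes, 32 of 33 and 26 of 26 lie below the dotted line, 31 and 23 above 0 without SR-3420 and 24 and 25 below 0 with it, adipocyte identity genes lie below 0 on the vertical axis, and most NRF2 target and immediate early genes are above 0 without SR-3420.

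The 10 genes that fell with SR-3420 and rose without it were Egln3 (log2FC -2.0 with and 0.96 without SR-3420), Ppp1r3c (-1.77 and 1.56), Sema3g (-1.69 and 1.14), Tmem82 (-1.66 and 2.59), 2010003K11Rik (-1.43 and 1.00), Acot4 (-1.19 and 1.34), Ctcfl (-1.15 and 0.93), Tmem186 (-0.61 and 0.56), Tcta (-0.58 and 0.81) and Aldh9a1 (-0.51 and 0.46). The difference was called for each of them (adjusted p of 0.00231 to 0.013). Among the 4 higher genes whose effects differed, Hmox1, Mt2 and Atf3 had a smaller log2FC with SR-3420 than without it. Hmox1 was at 3425 and 3187 with vehicle and at 37163, 39367 and 37602 with triacsin C (3.55), so that the difference was -1.11 (adjusted p = 0.0167), although its counts were highest with both agents. The differences were -1.24 for Mt2 (adjusted p = 0.0122) and -1.45 for Atf3 (adjusted p = 0.00494).

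To read the changes against the lipolysis response itself without the SR-3420 samples, etomoxir + SR-3420 was set against etomoxir, 3 samples each, where 1597 genes (12.5%) were higher and 1637 (12.8%) lower. Of the 131 genes that were higher with triacsin C + SR-3420, 120 (91.6%) were higher with SR-3420 in these etomoxir-treated samples and 0 were lower by edgeR, with 2 of the 131 below 0. Of the 454 that triacsin C lowered, 311 (68.5%) were lower and 7 (1.54%) higher. The shared genes make up 7.51% of the 1597 and 19.0% of the 1637. Atf3 (log2FC 3.34), Gdnf (2.81), Ptgs2 (2.81), Klf4 (2.41) and Mt2 (2.26) rose in that comparison, and Gpam (-1.37), Cpt2 (-1.31), Pfkfb1 (-1.27) and Mgll (-1.15) fell.

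The 7 genes that rose with lipolysis in the presence of etomoxir but fell when triacsin C was added included Sema3g (2.28 and -1.69), Egln3 (2.08 and -2.0), Tle3 (0.89 and -0.92), Egln1 (0.67 and -1.07), Pgam1 (0.56 and -0.53) and Gys1 (0.47 and -0.70), of which 3 belong to oxygen sensing or glycolysis.

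Etomoxir added to SR-3420, a comparison that shares the SR-3420 samples, called 1 gene by edgeR, Pfkfb1 (log2FC -0.99, adjusted p = 0.0461), with 1279 at an unadjusted p under 0.05. In it the median log2FC was -0.56 over the 454 lower genes and 0.30 over the 131 higher genes, against -0.94 and 0.74 with triacsin C, values that rest on the same SR-3420 samples. Side by side, Hmox1 was at 15379, 20190 and 15741 with etomoxir + SR-3420, Txnrd1 at 6984, 7936 and 6915 and Mt2 at 3202, 3329 and 2716. Ffar4 was at 525, 222 and 670 and Mgll at 3302, 2125 and 3508, below both SR-3420 samples and above all triacsin C + SR-3420 samples.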

How the data were processed

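RNA was sequenced from 16 samples in 6 groups, of which 5 enter the comparison. Per the labels and the study's methods, the authors aligned reads to mm9 with STAR 2.4.2a, used HOMER to keep 1 read per position and length, and counted reads over genes with iRNA-seq 1.1. The deposited values are raw counts for 20295 genes in 16 columns, and each column matched 1 sample. Collapsing reads at 1 position can lower the counts of abundant transcripts, and counting noise limits genes of few counts.

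Counts were tested with edgeR 4.0.16 (quasi-likelihood test, TMM normalization, filterByExpr) in R 4.3.3, in 1 model over the 6 groups that share an estimate of the spread, with Benjamini-Hochberg adjustment over the 12786 genes tested and a threshold of 0.05. Normalized counts are counts divided by a size factor. Alternatives used DESeq2 1.42.0, other filters and normalization, left-out samples, a replicate block and, chosen after seeing the data, offsets for GC content and length (splines with 5 degrees of freedom). DESeq2 tested 18777 genes, of which 2.43% were higher and 3.98% lower, and so more members of some lists than edgeR. The code was tested on simulated data.

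The comparison and the 33 gene lists were chosen with earlier results of these data known. Named were the 10 largest called changes in each direction with no overlap between groups and a mean normalized count of at least 50, up to 4 called members per list and direction, Pdk4, Plin2, Ffar4 and Cyp26b1, and 5 acyl-CoA synthetases. Other genes, among them members that did not pass and the remaining called members of a list, were named after their values were seen. Promoters were read from RefSeq on GRCm38.p6, another build than the mm9 of the counts. A few genes that the naming rule selects are not reported here.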

Additional observations from a re-analysis of the deposited data

Results flagged for a closer look

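For 23 genes that were selected by the naming rule or added for their values, the effect of triacsin C with SR-3420 differed from its effect without SR-3420 by the interaction term of edgeR's quasi-likelihood test (adjusted p under 0.05), and in each the difference (log2FC with minus log2FC without SR-3420) was negative. This holds for these genes only, other genes of the report also had a called difference, and over all genes 163 of the 321 called differences were negative and 158 positive. Among PPAR target and oxidation genes it was -1.23 for Angptl4, -1.37 for Cpt2, -1.46 for Crat, -1.57 for Fgf21, -1.07 for Pdk4, -1.21 for Pex11a, -1.47 for Ppara and -2.15 for Ucp3. Among other genes of lipid handling and adipocytes it was -2.53 for Acot4, -3.99 for Ffar4, -1.47 for Fitm2, -1.33 for Gpd1, -2.69 for Nat8l, -1.49 for Rxrg and -3.40 for Slc25a34. Among stress genes, which rose in both states, it was -1.45 for Atf3, -1.11 for Hmox1 and -1.24 for Mt2. It was -2.96 for Egln3, -1.36 for Pfkfb3, -0.96 for Ndufv3 and -0.86 for Sdha. The most negative value was that of Pmp2, a fatty acid binding protein named after its values were seen, at -6.45.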

How the results depend on the processing

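No called gene was called in the other direction under any alternative, but the number of calls moved widely around 585 (131 higher, 454 lower; 77.6% lower). It was 1204 (456 and 748) by the DESeq2 Wald test, 78 (9 and 69) when only the 2 groups entered the model, 230 (27 and 203) when a log2FC beyond 1 in either direction was also required, and 7 (2 and 5) when tested against a log2FC of 1. Without a filter 78 genes were higher. Leaving out 1 sample gave 54 to 401 calls, 7 to 73 higher and 47 to 328 lower, with the lowest values without SR-3420 replicate 1, where the single SR-3420 sample is assumed to vary like the other groups. Of 34 named higher and 57 named lower genes, 7 and 17 kept their calls in all 5 such fits. Chosen after seeing the data, GC and length offsets gave 2269 calls (943 and 1326), and 2920 for triacsin C against vehicle (main 1497), 1097 for the difference of effects (321) and 5512 for SR-3420 with etomoxir against etomoxir (3234). The cause of these shifts was not tested.

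Samples that share a replicate number did not meet the rule for pairing, since 27 of 35 same-number pairs had a correlation of deviations above 0.1 (mean 0.385, lowest -0.275), against a mean of -0.19 for 71 different-number pairs, and 0.589 and 0.632 for the 2 same-number pairs of this comparison. With a replicate block the counts were 3008 (1277 and 1731), with replicates 1 and 3 only 5538 (2840 and 2698), with GC and length offsets and the block 3715 (1776 and 1939), and by DESeq2 with the block 3621 (1812 and 1809), so that lower calls were 57.5%, 48.7%, 52.2% and 50.0% of all and their excess was lost or reversed in some of these fits. The block also called Acsl3 (adjusted p = 0.00714), Acsl4 (0.0396), Mt1 (0.00544) and Cyp26b1 (0.00645), which did not pass without it. It called 32 of 80 respiratory chain subunits lower, against 13.5% of all genes. Higher with it were 15 of 35 cytosolic heat shock proteins, 28 of 51 genes of the integrated stress response and 35 of 74 ribosome biogenesis genes (9.99% of all genes). With the block, triacsin C against vehicle gave 3072, the difference of effects 1669 and SR-3420 with etomoxir against etomoxir 5776.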

Other observations

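Pmp2, which encodes a fatty acid binding protein of the cytosol, had 3.03 and 6.43 normalized counts with vehicle and 848, 714 and 848 with triacsin C (log2FC 7.44, adjusted p = 2.43e-07 by edgeR's quasi-likelihood test). With SR-3420 it was at 6.48 and 11.3, and with triacsin C + SR-3420 at 17.0, 16.4 and 20.5 (0.99, adjusted p = 0.155), so that the samples given both agents stayed far below those given triacsin C alone. The gene was chosen after its values were seen.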
